A study of Mus musculus with 2 samples.

Results

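Gzma, Gzmb, Gzmk, Nkg7, Prf1 and Ctsw encode proteins of cytotoxic granules or of their release, and were chosen by name as the genes with these symbols in the raw count matrices, 6 genes of 55487. They were measured by droplet-based 3' single-cell RNA sequencing in sorted TCRb+CD3+CD4+ cells of WT C57BL/6J mice, all male and 8 weeks old. The cells came from 3 fat depots, brown (BAT), subcutaneous (SAT) and visceral (VAT), and from the spleen, were marked with hashtag antibodies and were pooled into 2 libraries, 1 per experiment. Each library held 2 hashed samples of each tissue, called replicates 1 and 2 in experiment 1 and replicates 3 and 4 in experiment 2. No group carried a mutation or treatment. Fat was broken up mechanically and with collagenase II and spleen mechanically only, and all samples were treated with red cell lysis buffer, so tissue and digestion cannot be told apart between fat and spleen. The labels do not say whether the duplicates of an experiment are separate animals, so p-values rest on the spread between these samples, which may be technical. In the tests of summed counts that spread was also pooled in part over genes.

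Cytotoxic lymphocytes kill by releasing granules that hold perforin, encoded by Prf1, which opens pores in the target membrane, and granzymes, serine proteases that enter through them. Gzma encodes a granzyme with trypsin-like specificity, Gzmb a granzyme that cleaves after aspartate and activates caspases, and Gzmk another granzyme with trypsin-like specificity. Nkg7 encodes a granule membrane protein needed for efficient granule release, and Ctsw a cathepsin-type cysteine protease found mainly in natural killer (NK) cells and cytotoxic T cells. These genes are best known in NK and CD8 T cells, and CD4 T cells that carry them include type 1 effector cells, natural killer T (NKT) cells and regulatory T cells (Treg cells).

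The granzyme genes lie in separate clusters of the genome (build mm10, GENCODE vM21). Gzma at chr13:113093825-113100981 and Gzmk at chr13:113171608-113225908 lie 70626 bases apart on the minus strand, and Gzmb at chr14:56258838-56262260, also on the minus strand, lies 24181 bases from Gzmc. Nkg7 is at chr7:43437073-43438249 and Prf1 at chr10:61297833-61304680 on the plus strand, and Ctsw at chr19:5465043-5468507 on the minus strand. All are protein coding. Whether reads were counted by strand is not given in the sources used here. The end of Ctsw overlaps the end of Fibp on the other strand, which held 2766 UMIs (unique transcript counts) in T cells, and the long locus of Gzmk holds Esm1, which had 27. A share of the reads of these pairs may be misplaced.

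The 250 bases before the RefSeq start of Gzma, Gzmb and Nkg7 are shown. The report sets Gzma against Gzmb, and Nkg7 was the most widely detected of the genes. RefSeq (build GRCm38.p6) gave such windows for 5 of the 6 genes, at chr13:113100982-113101231 and chr14:56262335-56262584 on the minus strand and at chr7:43436888-43437137 on the plus strand. Capitals mark motif matches, searched on both strands: TGTGGT, a core of RUNX sites, TGAGTCA, an AP-1 site, and AGGTGTGA, a core of T-box sites.
Gzma: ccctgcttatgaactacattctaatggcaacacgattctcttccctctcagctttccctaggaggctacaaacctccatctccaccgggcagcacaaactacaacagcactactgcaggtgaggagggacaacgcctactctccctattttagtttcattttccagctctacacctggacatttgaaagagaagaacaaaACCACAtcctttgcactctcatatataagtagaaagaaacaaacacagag
Gzmb: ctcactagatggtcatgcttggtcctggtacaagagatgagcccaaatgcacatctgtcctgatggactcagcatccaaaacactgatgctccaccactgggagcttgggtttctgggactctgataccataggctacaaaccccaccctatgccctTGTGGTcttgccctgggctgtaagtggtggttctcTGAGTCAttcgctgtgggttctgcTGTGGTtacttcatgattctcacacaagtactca
Nkg7: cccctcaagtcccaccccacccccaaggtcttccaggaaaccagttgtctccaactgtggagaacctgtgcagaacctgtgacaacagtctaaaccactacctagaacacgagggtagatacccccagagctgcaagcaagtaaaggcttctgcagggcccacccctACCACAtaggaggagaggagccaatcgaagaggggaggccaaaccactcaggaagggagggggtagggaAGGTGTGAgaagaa
TGTGGT or its reverse complement was in 4 of the 5 windows, those of Gzma, Gzmb, Nkg7 and Prf1, and in 14% of 32851 promoter windows of this length. TGAGTCA was in the Gzmb window and in 4.46% of all windows, and AGGTGTGA in the Nkg7 window and in 1.12% of all. The CRE letters TGACGTCA were in none of the 5 windows and in 1.55% of all, and the Gzmk window held none of the 4 motifs. RefSeq starts can differ from the GENCODE bounds given above. The end of the Nkg7 window, with the AGGTGTGA match, lies inside the GENCODE bounds of Nkg7. The Gzmk window, chr13:113180966-113181215 on the minus strand, lies wholly inside the GENCODE locus of Gzmk. No motif overlapped another. The matches describe letters only, and no binding was measured.

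The 4485 barcodes of library 1 summed to 29153747 gene UMIs and the 12239 of library 2 to 43879975, and 20 barcodes stood in both. After the cell filter and removal of cells of other types, 3871 and 8502 T cells remained, at median depths of 6090 and 4406.5 UMIs. Hashtags placed 3205 and 6042 of them in a tissue, in hashed samples of 257 to 930 cells and 1596232 to 4745664 UMIs. The hashtag of SAT replicate 1 stood apart, with a separation of 2.03 robust standard deviations against 3.08 to 8.5 for the others, and stricter calls kept 0 of its 428 T cells. Calls of granule genes between tissues that were lost without it are named beside the result, and the other printed SAT calls were kept. The calls of granule genes by Foxp3, Cxcr6 and Klrb1c class were kept without replicate 1 of all tissues. The label was checked on markers: Cd3d had a UMI in 97.1% and 94.6% of T cells and Cd4 in 62.8% and 46.1%. Of the CD8 markers, Cd8a had a UMI in 0.775% and 0.388% and Cd8b1 in 5.99% and 4.98%. Among 9 NKT and NK markers, the NK receptor gene Ncr1 was lowest at 0.31% and 0.153%, and Klrd1 was highest at 9.84% and 8.06%. Below, positive means at least 1 UMI of the named gene, the Cxcr6 and Klrb1c classes were split among cells with no Foxp3 UMI, and levels are CPM, a gene's count scaled to a common total of UMIs in the summed cells. Foxp3 marks Treg cells, Cxcr6 is a chemokine receptor gene of tissue effector cells, and Klrb1c encodes NK1.1, a receptor of NK and NKT cells. A lower level can come from fewer expressing cells or less RNA per cell, which cannot be told apart in summed counts.

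Nkg7 and Ctsw were common transcripts of these T cells, and the granzymes were rare. Nkg7 had a UMI in 31.9% of T cells of library 1 and 29.7% of library 2, and Ctsw in 28.1% and 24.1%. Prf1 was found in 7.7% and 6.14%, Gzmb in 4.47% and 4.78%, Gzmk in 1.58% and 1.73% and Gzma in 1.24% and 0.741%. Free RNA in droplets sets a floor to such shares, and 2 floors were taken. Barcodes led by B, myeloid, fibroblast or haemoglobin genes were removed as cells of other types, 114 and 502 in libraries 1 and 2. Of these 48.2% and 84.1% also carried at least 2 of 5 T cell markers, so as a whole they are no floor, and the 43 and 24 with no T cell marker UMI were used instead, a choice made after seeing the data. At median depths of 8846 and 3386.5 UMIs, Gzmb was found in 0 of 43 and 1 of 24 (4.17%), Gzma in 0 and 1, Gzmk in 0 and 0, Prf1 in 0 and 1, Ctsw in 1 and 1, and Nkg7 in 3 (6.98%) and 3 (12.5%). A count of 0 in 43 cells allows a share of up to 6.98%, and in 24 cells up to 12.5%. At these cell numbers the shares of Gzma, Gzmb and Gzmk over all T cells, and that of Prf1 in library 2, could not be told apart from this floor. Prf1 in library 1, at 7.7%, lay above the 6.98% limit but within the exact interval of up to 8.22%, while the shares of Ctsw in both libraries and of Nkg7 in library 1 lay above the floor's exact 95% binomial interval. For Nkg7 in library 2 that interval reached 32.4%. The other floor, spleen T cells with neither Foxp3 nor Cxcr6 UMIs, had Nkg7 in 6.3% and 2.97%, Gzmb in 0.768% and 0.443%, Gzmk in 0.461% and 0.443% and Gzma in 0.922% and 0.506%, at depths of 6659 and 5059 UMIs. The Gzmb shares over all T cells lay above the upper limits of this floor, 1.78% and 0.91%, as did those of Nkg7. Prf1 was found in 12.4% and 10.1% of those spleen cells, which is no floor for it.

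In percentage points the classes differed most in Nkg7, Ctsw and Gzmb. Klrb1c-positive cells (93 and 186 cells in libraries 1 and 2) had Nkg7 in 96.8% and 91.4%, Ctsw in 94.6% and 90.9%, Gzmb in 33.3% and 30.1% and Prf1 in 21.5% and 12.9%. Cxcr6-positive cells (938 and 1602) had Nkg7 in 75.8% and 74.6%, Ctsw in 62.5% and 55.1%, Gzmb in 9.59% and 11%, Gzmk in 3.62% and 4.37% and Prf1 in 6.18% and 4.43%. In Foxp3-positive cells (353 and 505) Gzmb was found in 12.2% and 12.3%, Nkg7 in 21.2% and 23.4%, Ctsw in 17.3% and 16.4% and Prf1 in 4.53% and 3.17%. Cxcr6-zero cells (2580 and 6395) had Nkg7 in 17.4% and 18.9%, Ctsw in 17.1% and 17.0%, Gzmb in 1.55% and 2.61%, Gzmk in 1.01% and 1.13% and Prf1 in 8.68% and 6.8%. Gzma followed another order: 7.53% and 3.76% of Klrb1c-positive, 1.49% and 1.06% of Cxcr6-positive and 0.567% and 0.594% of Foxp3-positive cells, against 1.24% and 0.672% of Cxcr6-zero cells. Median depths were 6788 and 4802.5 UMIs in Klrb1c-positive, 6278 and 4639.5 in Cxcr6-positive, 6263 and 4457 in Foxp3-positive and 6018 and 4348 in Cxcr6-zero cells. The Gzmb and Nkg7 shares of Foxp3-positive cells lay above both floors, though in library 2 the interval of the floor of 24 cells reached 21.1% for Gzmb and 32.4% for Nkg7.

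**Figure D1:**
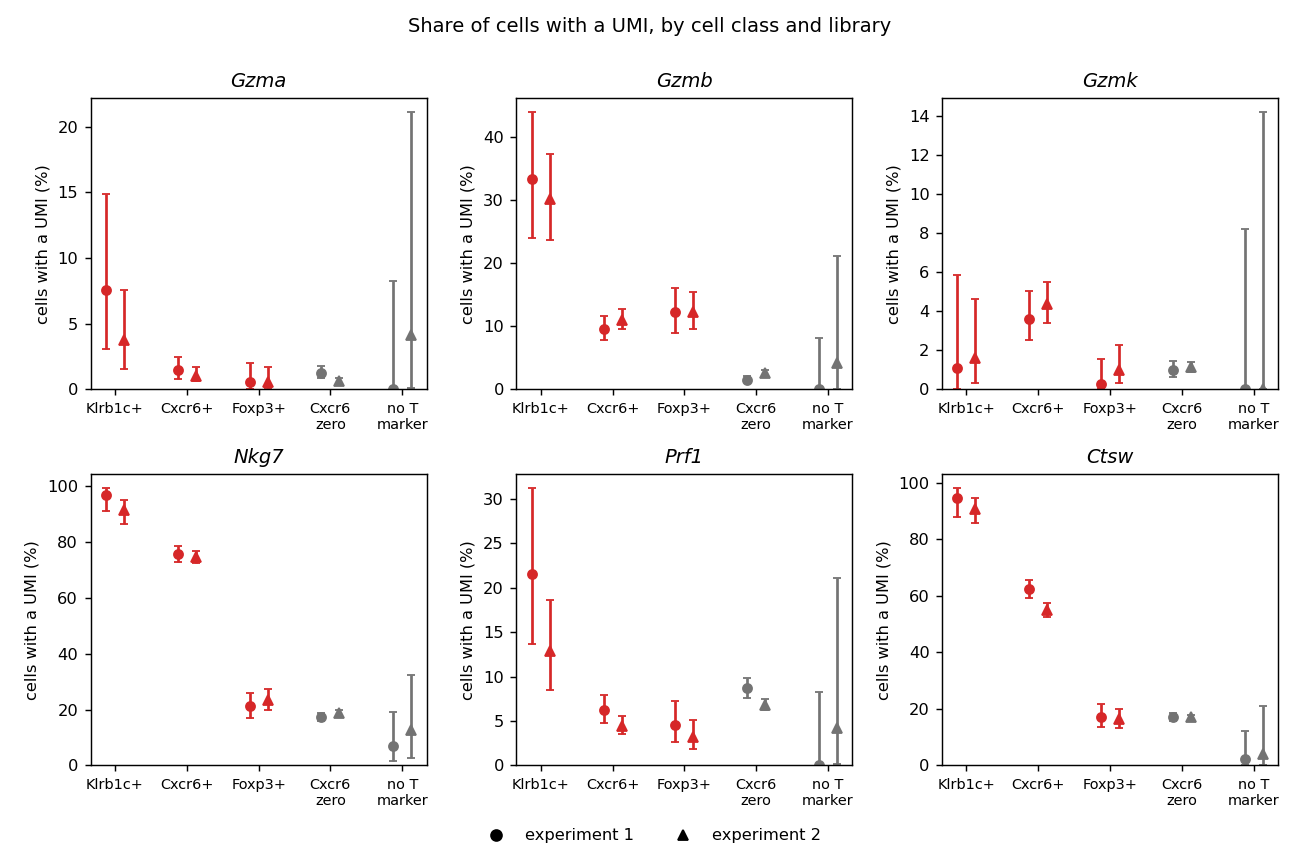
Percent of cells with at least 1 UMI of each of the 6 genes by class (red Klrb1c-positive, Cxcr6-positive and Foxp3-positive cells, grey Cxcr6-zero cells and barcodes of other types with no T cell marker UMI; circles experiment 1, triangles experiment 2, a library each; bars are exact 95% binomial intervals, counting error only). Gzmb stands at 33.3% and 30.1% of Klrb1c-positive cells and at 12.2% and 12.3% of Foxp3-positive cells, while Prf1 is higher in Cxcr6-zero cells (8.68% and 6.8%) than in Foxp3-positive cells (4.53% and 3.17%).

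Gzma and Gzmb transcripts were spread over cells in different ways. Gzma was found in 111 T cells, 70 of them (63.1%) with a single UMI, and 22 cells with at least 10 UMIs held 91.8% of its 1601 UMIs. The highest Gzma cell had 428 UMIs, and 5 cells held 50% of the total. Gzmb was found in 579 cells, of which 292 (50.4%) had a single UMI. Cells with at least 10 UMIs numbered 44 and held 39.7% of 2114 Gzmb UMIs, the highest cell had 101, and 71 cells were needed for 50%. The highest cell of a tissue held 64 of 80 Gzma UMIs in BAT and 428 of 1047 in VAT, against 11 of 98 and 101 of 487 Gzmb UMIs. Prf1 (975 UMIs in 820 cells) and Gzmk (320 in 208) were near 1 UMI per positive cell, with 86.7% and 76% of positive cells at 1 UMI. Nkg7 gave 17435 UMIs in 3756 cells and Ctsw 7381 in 3138.

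**Figure D2:**
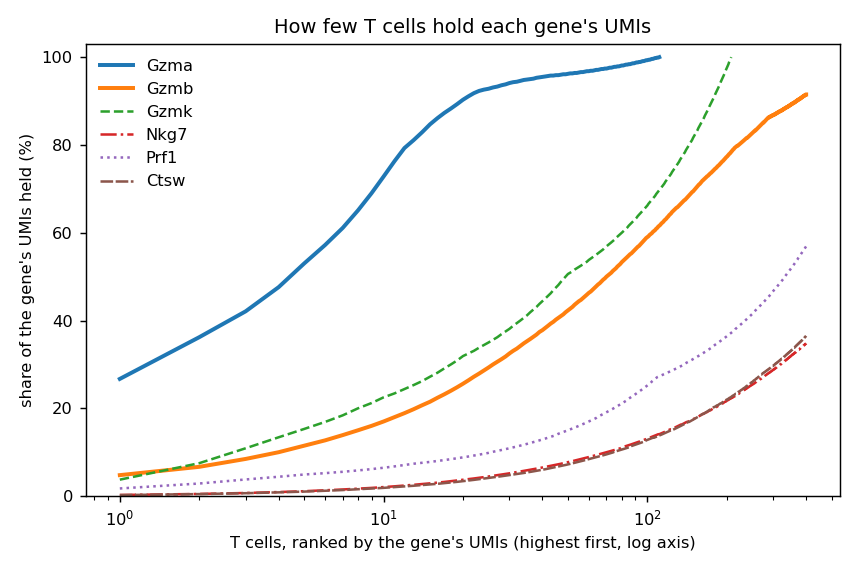
Cumulative share of each gene's UMIs (y axis, percent) against the number of T cells taken from the highest down (x axis, log scale), both libraries together. The Gzma curve is the steepest and reaches 50% with 5 cells, against 71 cells for Gzmb and 702 for Nkg7.

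The 22 cells with at least 10 Gzma UMIs, picked by that level and described without a test, lay mostly in VAT. VAT gave 13 of them, 8 in replicate 1, SAT 3, spleen 2 and BAT 1, and 3 had no single tissue. All 22 had Nkg7 and Ccl5, 18 had Ctsw and 18 had Klrd1, an NK receptor gene. Cx3cr1, a chemokine receptor gene of long-lived cytotoxic effector cells, was in 14 and the type 1 transcription factor gene Tbx21 in 13. Gzmb was in 10, Prf1 in 9, Klrb1c in 8 and Cxcr6 in 4, and Foxp3 in 0. Cd3e was found in 18 of them and Cd4 in 12. The other 4 had no Cd3e UMI, and these 4 had UMIs of Ncr1, Klrb1c, Tyrobp and Fcer1g, all markers of NK cells, with 2 to 17 Prf1 UMIs each, against 0 to 2 in the 18 others. Both spleen cells, with 86 and 63 Gzma UMIs, were among these 4 and held 149 of the 162 Gzma UMIs of spleen.

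Most pairs of granule genes were found together in single cells more often than independence gives, and pairs with Prf1 varied. Gzma and Gzmb were both found in 12 cells of library 1 and 13 of library 2, where independence within each library would give 2.15 and 3.01 (odds ratios 7.77 and 5.47, with 0.5 added to each count, over 3871 and 8502 cells, which share library and depth). With each cell thinned to 1300 UMIs the odds ratios were 16.7 and 6.53. Of Gzma cells 25.0% and 20.6% had Gzmb, and of Gzmb cells 6.94% and 3.2% had Gzma. By class, both were found in 5 and 3 Cxcr6-positive cells (independence 1.34 and 1.88), but in 0 and 0 with thinned cells. They were found in 7 and 9 Cxcr6-zero cells (0.496 and 1.12) and in 0 and 1 Foxp3-positive cells. Klrb1c-positive cells, which overlap the Cxcr6 classes, had both in 4 and 5 (2.33 and 2.11). The 4 high Gzma cells with Ncr1 all had Gzmb. Gzmb cells had Nkg7 in 75.1% and 70.7%, against 29.9% and 27.6% of cells without Gzmb. Nkg7 was also found in 66.7% and 63.5% of Gzma cells and in 78.7% and 77.6% of Gzmk cells. Nkg7 and Ctsw were both found in 714 and 1275 cells, where independence gives 347 and 608. Nkg7 and Prf1 were both in 91 and 110 cells, under the 95 and 155 of independence, with odds ratios of 0.937 and 0.618, but of 1.34 and 0.704 with thinned cells. Gzmk and Prf1 were both in 7 cells of library 2, against 9.03 under independence, and in 6 of library 1, against 4.7. Prf1 with Ctsw had odds ratios of 1.22 and 1.12, and of 0.765 and 0.813 with thinned cells. Within Cxcr6-positive cells Nkg7 with Prf1 had odds ratios of 3.29 and 2.05, which moved to 1.51 and 0.794 with thinned cells. There Gzmb with Prf1 had 3.43 and 6.06, and 2.58 and 3.38 with thinned cells. In Klrb1c-positive cells Gzmb with Prf1 had 2.44 and 3.22, and 4.12 and 5.75 with thinned cells. At least 3 of the 6 genes were found in 45.2% and 34.4% of Klrb1c-positive, 13.5% and 13.0% of Cxcr6-positive and 3.97% and 2.97% of Foxp3-positive cells, against 1.71% and 1.75% of Cxcr6-zero cells. No T cell had all 6.

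Cxcr6-positive cells had more Nkg7, Ctsw and Gzmb and less Prf1 than Cxcr6-zero cells of the same hashed sample. Sums were compared in 15 hashed samples with at least 20 cells of each class (edgeR quasi-likelihood test with hashed sample as a block, Benjamini-Hochberg adjusted, called at 0.05). Gzma and Gzmk did not pass the filter on low counts, and 35.8% of the 7971 genes tested were called, 18.2% as higher and 17.6% as lower. Nkg7 levels in Cxcr6-positive sums were 81.1, 677 and 1130 CPM (lowest, median and highest), against 9.53, 196 and 440 CPM in Cxcr6-zero sums. The positive sum was higher in 15 of 15 samples, and the log2 fold change was 2.21 (SE 0.28, adjusted p = 3.78e-07). Ctsw levels were 198, 266 and 470 CPM in Cxcr6-positive sums, against 20.5, 64.2 and 174 CPM in Cxcr6-zero sums, and these groups did not overlap. Its log2 fold change was 1.96 (SE 0.15, adjusted p = 4.6e-11). Gzmb levels were 0, 41.7 and 212 CPM in Cxcr6-positive sums, against 0, 8.5 and 83.8 CPM in Cxcr6-zero sums, higher in 13 samples and lower in 2. Its log2 fold change was 1.51 (SE 0.31, adjusted p = 0.000348). Prf1 went the other way, with 2.76, 10.2 and 34.8 CPM in Cxcr6-positive sums, against 7.44, 15.0 and 28.2 CPM in Cxcr6-zero sums. It was lower in 12 of 15 samples, with a log2 fold change of -0.77 (SE 0.18, edgeR adjusted p = 0.00138). The share of thinned cells with Prf1 averaged 1.26% against 2.0%, lower in 9 samples and higher in 6. That difference was not called (exact sign-flip permutation test, chosen after seeing the data, adjusted p = 0.15).

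Gzma and Gzmk, with too few counts for the test, are given as levels. Gzma averaged 5.29 ± 8.59 CPM in Cxcr6-positive sums and 49.5 ± 116 CPM in Cxcr6-zero sums (SD, n = 15), lower in 12 and higher in 3, with 89 UMIs in the positive sums and 1308 in the zero sums. Gzmk averaged 14.2 ± 14.3 CPM and 3.8 ± 3.72 CPM, higher in 11 and lower in 4. The direction of each of the 6 differences in mean CPM was the same in experiment 1 and experiment 2, for example 30.4 against 18.2 CPM of Gzmb in experiment 1 (n = 7) and 70.6 against 14.9 CPM in experiment 2 (n = 8). The summed level of the 9 NKT and NK markers was 126 and 237 CPM in Cxcr6-positive cells of libraries 1 and 2, against 65.5 and 76.0 CPM in Cxcr6-zero cells. Its part in these differences was not tested.

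With all tissues in 1 fit, Foxp3-positive cells had more Gzmb and less Nkg7, Ctsw and Prf1 than Foxp3-zero cells. In 13 hashed samples 16.6% of the 7911 genes tested were called, 8.9% as higher and 7.75% as lower, and again Gzma and Gzmk did not pass the filter on low counts. Gzmb levels were 0, 28 and 442 CPM (lowest, median and highest) in Foxp3-positive sums, against 0.95, 9.72 and 136 CPM in Foxp3-zero sums. Higher in 9 samples and lower in 4, Gzmb had a log2 fold change of 1.97 (SE 0.32, edgeR adjusted p = 2.3e-05). The fit weights samples by their counts. By tissue, mean Gzmb in Foxp3-positive and Foxp3-zero sums of at least 20 cells was 202 and 16.4 CPM in VAT and 150 and 72.1 CPM in SAT. It was 8.13 and 9.02 CPM in BAT. In spleen it was 6.88 and 1.85 CPM, with a median of 0 CPM in Foxp3-positive sums. The share of thinned Foxp3-positive cells with Gzmb was 4.69% against 1.69% of Foxp3-zero cells, with an adjusted p of 0.064 in an exact sign-flip permutation test over the 13 samples, chosen after seeing the data. Nkg7 levels were 0, 85.2 and 297 CPM, against 18.8, 355 and 722 CPM, lower in 13 of 13 samples (log2 fold change -1.56, SE 0.12, edgeR adjusted p = 1.68e-11). Without the hashed-sample block the Nkg7 value was -1.47 and not called (adjusted p = 0.0946). Ctsw was lower in 13 of 13 samples and Prf1 in 12 of 13, with log2 fold changes of -2.19 (SE 0.16, edgeR adjusted p = 3.43e-12) and -1.61 (SE 0.33, edgeR adjusted p = 0.000383). The share of thinned cells with Prf1 averaged 1.01% against 1.86%, lower in 9 samples and higher in 4, and was not called (exact sign-flip permutation adjusted p = 0.143). Gzma gave 10 UMIs in all Foxp3-positive sums, against 1305 in Foxp3-zero sums, and Gzmk 2 against 213. Gzmk was lower in 13 of 13 samples and Gzma in 12 of 13. NKT and NK markers summed to 52.3 and 36.4 CPM in Foxp3-positive cells of libraries 1 and 2.

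**Figure D3:**
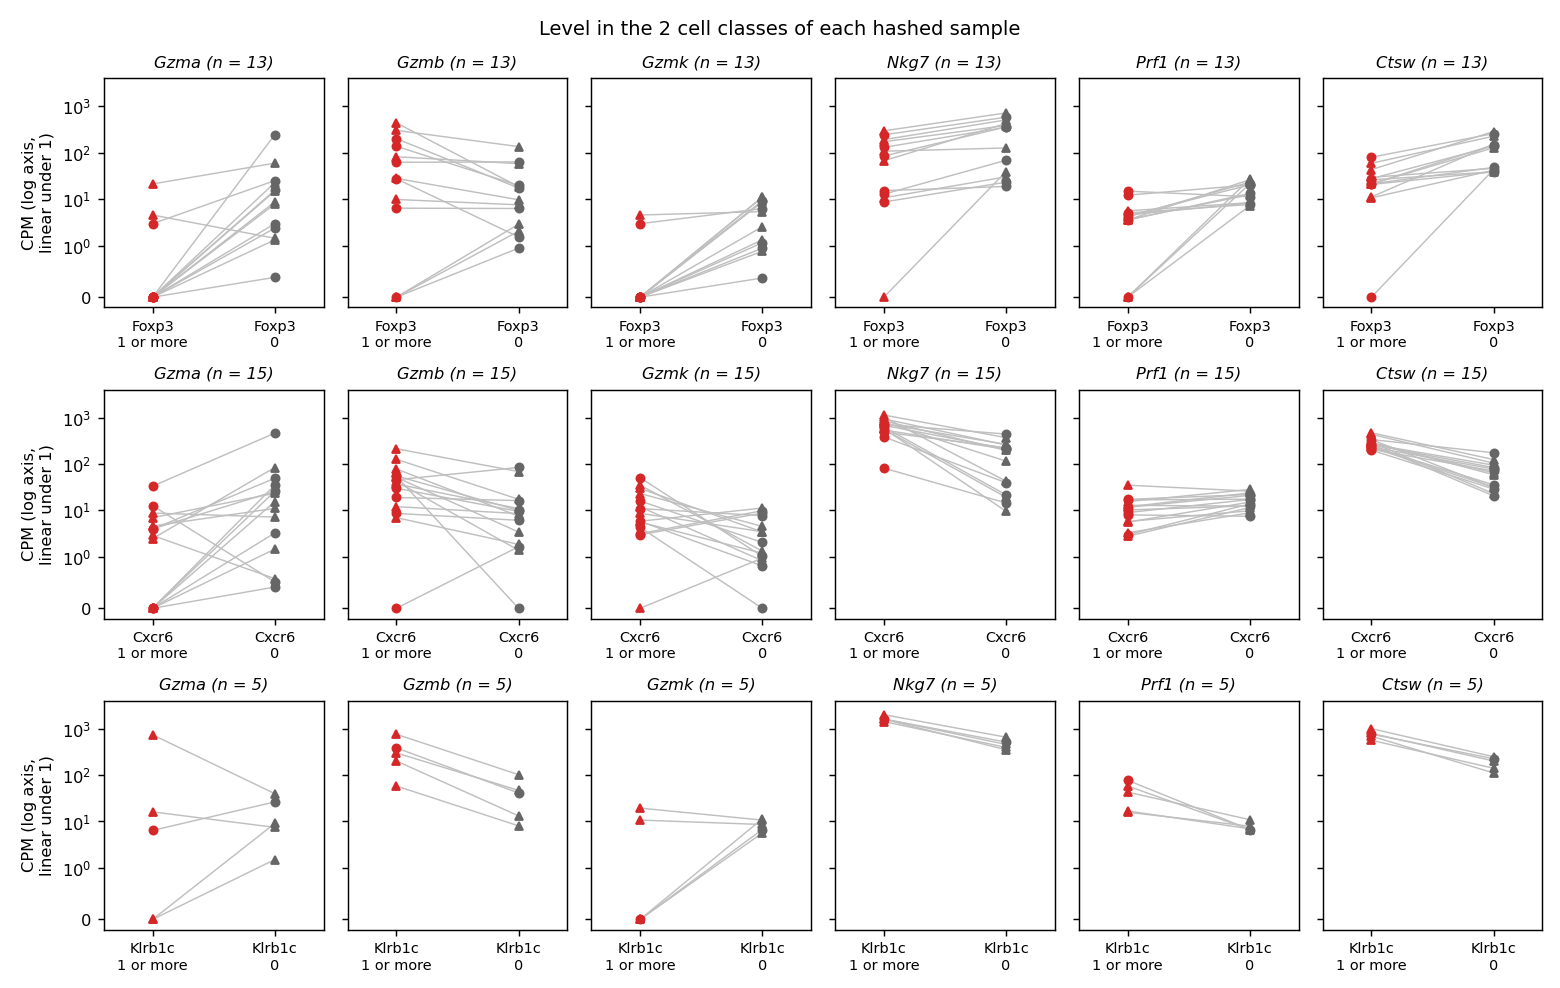
CPM of each gene (y axis, log scale, linear under 1) in the positive sum (red, left) and the zero sum (grey, right) of each hashed sample, joined by a line, for the Foxp3 (n = 13), Cxcr6 (n = 15) and Klrb1c (n = 5) classes; circles are experiment 1 and triangles experiment 2. Nkg7 and Ctsw lie higher in the Cxcr6-positive and lower in the Foxp3-positive sum in every sample, while Gzmb lies higher in 13 of 15 and 9 of 13 samples.

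Klrb1c-positive cells had more Gzmb, Nkg7, Ctsw and Prf1 than Klrb1c-zero cells. With at least 20 such cells in SAT replicates 1, 3 and 4 and VAT replicates 3 and 4, these 5 hashed samples were compared, and 9.7% of the 7877 genes tested were called, 4.66% as higher and 5.04% as lower. Gzmb levels in Klrb1c-positive sums were 385, 300, 756, 201 and 58.1 CPM, against 41.1, 46.7, 102, 13.2 and 8.04 CPM in Klrb1c-zero sums of the same samples. Every positive sum exceeded its own zero sum, with a log2 fold change of 2.94 (SE 0.15, edgeR adjusted p = 2.37e-20). Nkg7 averaged 1650 ± 213 CPM in Klrb1c-positive and 474 ± 118 CPM in Klrb1c-zero sums, and Ctsw 761 ± 161 and 185 ± 57.5 CPM (SD, n = 5), without overlap (log2 fold changes 1.69, SE 0.08, edgeR adjusted p = 2.23e-21, and 1.94, SE 0.11, edgeR adjusted p = 3.69e-19). Prf1 levels were 76.9, 15.8, 42.9, 16.8 and 58.1 CPM, against 6.7, 7.91, 10.9, 6.95 and 6.7 CPM. Its log2 fold change of 2.26 (SE 0.43, edgeR adjusted p = 9.47e-05) was not called under stricter hashtag calls (1.4, adjusted p = 0.197) or without replicate 4 (2.18, adjusted p = 0.069). Shares of thinned cells with Gzmb, Nkg7 and Ctsw were each higher in 5 of 5 samples, and with Prf1 in 4. None was called (exact sign-flip permutation test, chosen after seeing the data, adjusted p = 0.0938 for the first 3 and 0.15 for Prf1). With 5 samples the unadjusted p of that test cannot go below 0.0625.

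The Gzma call in this comparison rested on 1 cell of a single sum, which held 88 of the 92 Gzma UMIs of the Klrb1c-positive sums. Gzma levels were 6.41, 0, 16.1, 738 and 0 CPM in Klrb1c-positive sums, against 26.4, 1.51, 7.45, 39.7 and 9.05 CPM in Klrb1c-zero sums, higher in 2 of 5. The log2 fold change was 2.40 (SE 0.43, edgeR adjusted p = 4.56e-05). Without replicate 3, which holds the VAT sum at 738 CPM, it was -0.76 (adjusted p = 0.759), and in DESeq2 it was 0.18 (adjusted p = 0.982). Gzmk averaged 6.02 ± 8.8 CPM in Klrb1c-positive and 8.61 ± 2.48 CPM in Klrb1c-zero sums (SD, n = 5), with a log2 fold change of -0.68 (SE 0.77, edgeR adjusted p = 0.732).

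Within Cxcr6-positive cells, those with Klrb1c again had more Gzmb, Nkg7 and Ctsw. Only SAT replicate 4 had 20 such cells, so sums of at least 10 were used in 5 hashed samples, and 4.34% of the 5513 genes tested were called, 1.81% as higher and 2.52% as lower. Gzmb averaged 261 ± 300 CPM in Klrb1c-positive Cxcr6-positive and 73.6 ± 66.7 CPM in Klrb1c-zero Cxcr6-positive sums (SD, n = 5), with a log2 fold change of 1.76 (SE 0.20, edgeR adjusted p = 3.55e-12). Without the hashed-sample block it was 1.93 and not called (adjusted p = 0.064). Nkg7 differed by 0.95 (SE 0.09, adjusted p = 6.93e-16) and Ctsw by 1.26 (SE 0.12, adjusted p = 1.49e-16) on the log2 scale. Prf1, with 16 and 32 UMIs, and Gzma, with 1 and 30 UMIs, were not tested. By cells, Gzma was in 4.17% and 0.877% of Klrb1c-positive Cxcr6-positive cells of libraries 1 and 2 and Gzmb in 39.6% and 31.6%.

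Other genes of the cytotoxic pathway also differed in Cxcr6-positive cells. Of 16 genes for the granule matrix, protease maturation and exocytosis, 15 were tested, 7 rose and 2 fell, in a fit that called 18.2% of all genes as higher and 17.6% as lower. Their median log2 fold change was 0.28, against -0.00 over all genes tested. Lyst, a regulator of lysosomal granule traffic, rose by 1.4 (SE 0.09, edgeR adjusted p = 1.02e-12) and Stx11, a fusion protein needed for granule release, by 1.78. The lysosomal protease gene Ctsd rose by 0.88, and Ctsl, another lysosomal protease gene, fell by 1.52. Of 4 inhibitors that protect from granule proteases 3 were tested and 2 rose: Serpinb9, the intracellular granzyme B inhibitor, by 0.78 and Serpinb6b by 1.04. Of the 4 death ligands Tnf, Tnfsf10 and Fasl rose by 1.53, 1.24 and 1.04, and Lta fell by 0.99. Of 10 transcription factors of the cytotoxic programme 9 were tested and 7 rose, led by Id2 at 2.25, Zfp683 (which encodes Hobit) at 1.81, Bhlhe40 at 1.77 and Tbx21 at 1.57. Of 5 chemokines and cytokines of cytotoxic cells 4 were tested and 3 rose: Ccl5 by 2.43, Ifng by 1.80 and Xcl1 by 1.78. All 6 naive T cell genes fell. In the Klrb1c class, where 9.7% of genes were called, 5 of 5 such chemokines and cytokines, 5 of 9 tested transcription factors and 3 of 14 tested granule matrix genes rose and none of these fell.

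In Foxp3-positive cells the same lists split. Against Foxp3-zero cells, 6 of 15 tested granule matrix genes rose and 3 fell, in a fit that called 8.9% of all genes as higher and 7.75% as lower. Their median log2 fold change was 0.21, against -0.01 over all genes tested. Of 7 tested transcription factors 2 rose and 3 fell (median -0.37), and 1 of 3 tested protease inhibitors rose. None of the death ligands rose and 2 of 4 fell (median -0.44), and none of 4 tested chemokines and cytokines rose and 3 fell (median -1.74). Within Cxcr6-positive cells, Klrb1c-positive cells had more of 4 of 4 tested chemokines and cytokines, where 1.81% of all genes were called higher: Ccl4 by 2.24, Xcl1 by 2.1, Ccl5 by 0.82 and Ifng by 0.54 on the log2 scale. They also had more Lyst (0.87), Ctsd (0.81), Tnfsf10 (0.79), Hopx (0.53) and Id2 (0.46).

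The ratio of Gzma to Gzmb UMIs fell in Cxcr6-positive and in Foxp3-positive cells. The ratio was taken as log2 of Gzma UMIs plus 0.5 over Gzmb UMIs plus 0.5 in each sum, which needs no scaling between samples. It averaged -2.99 in Cxcr6-positive and 0.64 in Cxcr6-zero sums, a difference of -3.63 (SE 0.72), lower in 14 of 15 samples (exact sign-flip permutation test, 2-sided, p = 0.000305, adjusted over the 3 classes 0.000915). In the Foxp3 class it averaged -3.36 in positive and -0.28 in zero sums, a difference of -3.08 (SE 0.89), lower in 11 of 13 samples (exact sign-flip permutation p = 0.00244, adjusted 0.00366). In the Klrb1c class it averaged -3.76 in positive and -1.49 in zero sums, lower in 4 of 5, a difference of -2.27 (SE 0.89) that was not called (exact sign-flip permutation p = 0.125). With 5 samples that test cannot go below 0.0625. Positive sums held fewer cells than zero sums, and 22 cells held most of the Gzma UMIs, whose part in the ratio was not tested. By share of cells, Gzma was found in 0.567% and 0.594% of Foxp3-positive cells of libraries 1 and 2, against 1.31% and 0.75% of Foxp3-zero cells. Cxcr6-positive cells had it in 1.49% and 1.06%, against 1.24% and 0.672% of Cxcr6-zero cells, so by cells Gzma was not lower there. Over thinned cells of the 15 samples the Gzma share averaged 0.609% in Cxcr6-positive and 0.647% in Cxcr6-zero cells (exact sign-flip permutation p = 0.932, adjusted 0.987, chosen after seeing the data).

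Cells with Gzma and no Gzmb (86 cells) and cells with Gzmb and no Gzma (554) differed in other genes too. Of them 10 and 114 carried hashtags of several samples. Cxcr6 was found in 29.1% of the Gzma cells and 54.7% of the Gzmb cells, Foxp3 in 4.65% and 18.8%, Cd160 in 2.33% and 25.3%, and Cx3cr1 in 16.3% and 1.08%. Sums per library (n = 2 each) were compared with edgeR with library as a term. That fit has 1 residual degree of freedom per gene and a spread pooled over genes, and 2.39% of the 7459 genes tested were called, 1.05% as higher and 1.34% as lower. DESeq2 called 18 genes, against 178 here. The 5 called genes with the highest log2 fold change were Cx3cr1 at 5.01 (58 UMIs in Gzma cells, 10 in Gzmb cells), S1pr5, a receptor for exit from tissue, at 3.35, Kcnj8 at 2.88, and Sgo1 and Sgo2a, which protect chromosome cohesion, at 2.64 and 2.61. The 5 lowest were Klra1, Acoxl, Trgc1 and Atp8a2, with 0 UMIs in Gzma cells and 274, 75, 73 and 64 in Gzmb cells, and Gm36723 at -4.37 (1 UMI against 133). Counting cells with both genes too, 70 of 111 Gzma and 292 of 579 Gzmb cells had a single UMI, which can be free RNA. Hashtags placed 12, 30, 32 and 15 of all Gzma cells in BAT, SAT, VAT and spleen. Of all Gzmb cells they placed 38, 227, 95 and 19. The part of free RNA and of tissue in these differences was not tested.

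Among the listed genes, cells with Gzmb alone had more of the Treg markers and of 3 of 6 tested NKT and NK markers. All 4 Treg markers were lower in Gzma cells, with Foxp3 at -1.74, Ikzf2 at -1.62, Il2ra at -2.03 and Ctla4 at -1.55. Of 6 tested NKT and NK markers Cd160 (-4.28), Fcer1g (-3.48) and Klrb1c (-1.85) were lower and Klrd1 (1.48) was higher. Zeb2, a transcription factor of terminal effector cells, was higher by 2.28 (SE 0.34, edgeR adjusted p = 0.00021), as were Ccl5 by 0.70 and the naive and memory genes Lef1 by 0.71 and Tcf7 by 0.80. Lower were Lyst (-1.28), Tnfsf10 (-1.55), Tnf (-1.36), Ccl4 (-1.54) and Xcl1 (-1.53). Of the granule genes, Ctsw was lower in Gzma cells, at 153 ± 45.3 CPM against 347 ± 96.0 CPM (log2 fold change -1.11, SE 0.18, edgeR adjusted p = 0.000348), but not called by DESeq2 (-1.10, adjusted p = 0.104). Gzmk was higher at 28.5 ± 8.63 CPM against 8.64 ± 3.11 CPM (1.84, SE 0.50, edgeR adjusted p = 0.049), and not called by DESeq2 (1.83, adjusted p = 1) or without Klrb1c cells (1.61, adjusted p = 0.12). Nkg7 (-0.32, SE 0.15, adjusted p = 0.393) and Prf1 (-0.05, SE 0.50, adjusted p = 0.99) were not called.

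By tissue, Nkg7, Ctsw, Gzmb and Gzmk were higher in SAT and VAT than in spleen, and Prf1 was lower there. In BAT only Nkg7 of the 6 passed the test against spleen. All 16 hashed samples entered 1 fit with experiment as a term, and all 6 genes passed the filter among 10556 genes. The share of all genes called was 9.21% for BAT against spleen, 41% for SAT against spleen, 38.8% for VAT against spleen, 3.71% for SAT against VAT, 32.3% for BAT against VAT and 34.2% for BAT against SAT. Nkg7 in replicates 1 to 4 was at 65.9, 84.1, 199 and 126 CPM in BAT, 542, 400, 487 and 692 CPM in SAT, 329, 328, 369 and 409 CPM in VAT and 21.8, 18.4, 29.0 and 37.3 CPM in spleen. No BAT, SAT or VAT sample overlapped spleen. The log2 fold changes against spleen were 2.15 for BAT, 4.20 for SAT and 3.68 for VAT (edgeR adjusted p = 3.45e-07, 9.06e-13 and 7.23e-12). SAT exceeded VAT by 0.51 (SE 0.14, edgeR adjusted p = 0.0479), a call lost in 17 alternatives, among them without SAT replicate 1 (0.40, adjusted p = 0.208). Gzmb was at 6.31, 6.6, 16 and 7.66 CPM in BAT, 63.4, 34.5, 60.0 and 147 CPM in SAT, 33.7, 38.6, 53.7 and 10.7 CPM in VAT and 0.856, 4.43, 1.9 and 2.74 CPM in spleen. SAT and VAT were higher than spleen by 4.87 (SE 0.51, edgeR adjusted p = 1.69e-07) and 3.76 (SE 0.57, adjusted p = 2.42e-05). BAT was below SAT (-2.91, adjusted p = 2.09e-05) and VAT (-1.80, adjusted p = 0.00575), and the difference of SAT from VAT missed the threshold (1.11, SE 0.33, adjusted p = 0.0637). Without SAT replicate 1, SAT exceeded spleen by 4.88 in Gzmb, 4.09 in Nkg7, 2.27 in Ctsw and 1.99 in Gzmk, and Prf1 was at -1.28, all still called.

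Mean Ctsw fell in the same order of tissues as Nkg7 and Gzmb, with SAT first, then VAT, BAT and spleen, while Gzmk was highest on average in VAT and Prf1 in spleen. Ctsw was at 41.0, 46.7, 88.4 and 45.5 CPM in BAT, 237, 151, 216 and 269 CPM in SAT, 126, 133, 119 and 147 CPM in VAT and 37.7, 45.4, 40.0 and 37.9 CPM in spleen. SAT exceeded spleen by 2.35 (SE 0.16, edgeR adjusted p = 3.23e-10), VAT exceeded spleen by 1.64 (SE 0.16, adjusted p = 9.98e-08) and SAT exceeded VAT by 0.70 (SE 0.14, adjusted p = 0.00603), with no overlap of samples. Gzmk was at 0.35, 6.16, 1.7 and 0.851 CPM in BAT, 5.86, 5.64, 5.33 and 8.1 CPM in SAT, 7.98, 8.13, 10.2 and 10.4 CPM in VAT and 0.856, 1.02, 2.38 and 1.26 CPM in spleen. Its log2 fold changes were 1.98 for SAT against spleen (edgeR adjusted p = 0.00148) and 2.57 for VAT against spleen (adjusted p = 5.85e-05). BAT was below VAT (-1.98, adjusted p = 0.0012), and its difference from SAT (-1.38, adjusted p = 0.0236) lost the call without BAT replicate 1, 3 or 4 or SAT replicate 4. Prf1 ran in the opposite sense, at 20.3, 17.2, 13.9 and 26.0 CPM in BAT, 11.7, 8.14, 8.0 and 11.9 CPM in SAT, 7.39, 12.2, 6.63 and 8.27 CPM in VAT and 18.8, 19.4, 24.7 and 22.3 CPM in spleen. It was lower than spleen in SAT (-1.21, SE 0.19, edgeR adjusted p = 3.83e-05) and VAT (-1.45, SE 0.19, adjusted p = 5.15e-06), and higher in BAT than in SAT (1.07) and VAT (1.31). Its BAT and spleen samples overlapped (-0.13, adjusted p = 0.736).

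**Figure D4:**
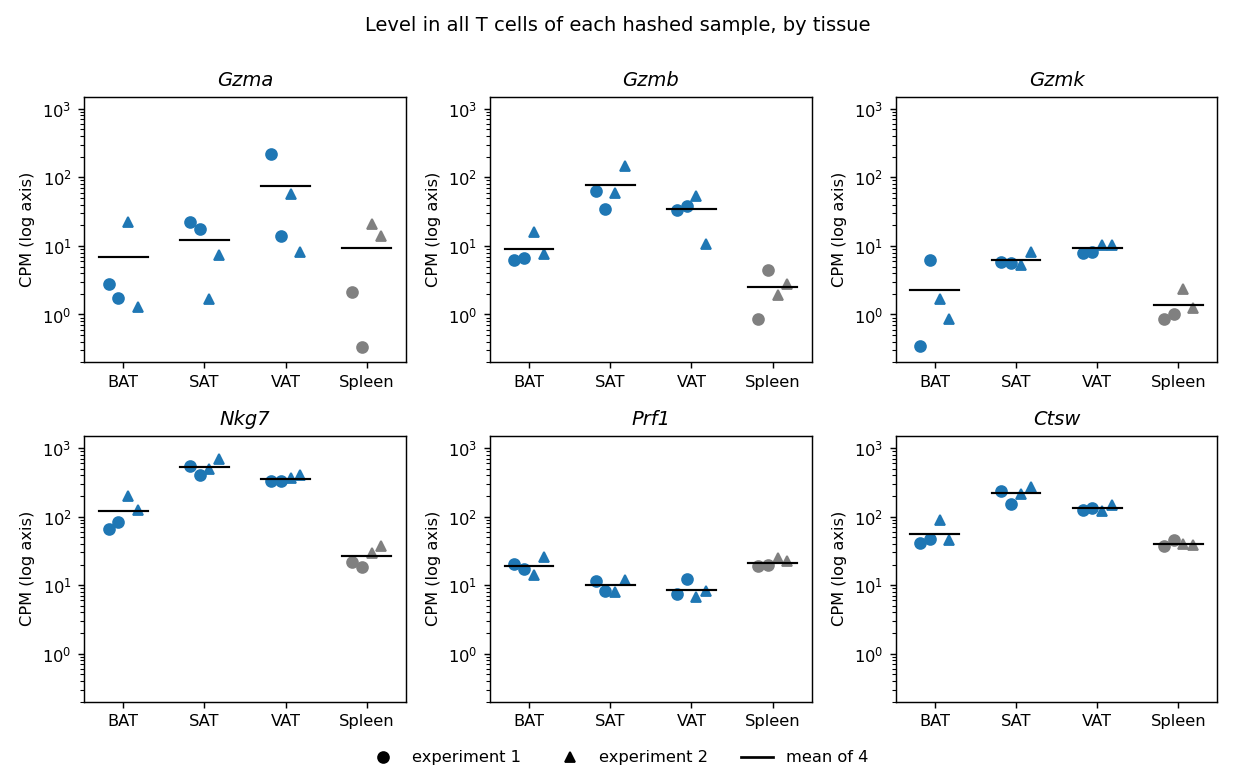
CPM of each gene (y axis, log scale) in all T cells of each hashed sample by tissue, with the mean of 4 as a line; circles are experiment 1 and triangles experiment 2. Nkg7 and Gzmb lie higher in SAT and VAT than in spleen (18.4 to 37.3 and 0.856 to 4.43 CPM), Prf1 lies lower there, and Gzma ranges from 8.27 to 216 CPM within VAT alone.

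Gzma varied widely within tissues. Its levels were 2.8, 1.76, 22.1 and 1.28 CPM in BAT, 22.3, 17.5, 1.67 and 7.34 CPM in SAT, 216, 13.8, 56.6 and 8.27 CPM in VAT and 2.14, 0.341, 21.2 and 14.1 CPM in spleen. Every tissue overlapped every other. Without the highest cell of each sample the levels were 1.4, 0.44, 0.34 and 0.851 CPM in BAT, 4.4, 0, 1.0 and 4.56 CPM in SAT, 89.3, 2.03, 35.8 and 3.37 CPM in VAT and 1.71, 0, 0.714 and 0.843 CPM in spleen, a setting chosen after seeing the data. VAT was then above spleen in all 4 samples. With all cells VAT exceeded spleen by 2.50 (SE 0.79, edgeR adjusted p = 0.0157), a call lost without VAT replicate 1 (1.27, adjusted p = 0.17), spleen replicate 1 (2.10, adjusted p = 0.0641) or spleen replicate 2 (1.98, adjusted p = 0.073). BAT stood below VAT, at -3.08 (SE 0.90, adjusted p = 0.012), lost without VAT replicate 1 (-1.66, adjusted p = 0.126), BAT replicate 1 (-2.65, adjusted p = 0.0571) or BAT replicate 2 (-2.69, adjusted p = 0.0516). The log2 ratio of Gzma to Gzmb averaged -1.21 ± 1.23 over BAT samples, -2.95 ± 2.02 over SAT samples, 0.23 ± 1.75 over VAT samples and 0.92 ± 2.88 over spleen samples (SD, n = 4). No pair passed an exact permutation test within experiments (lowest adjusted p = 0.417; the smallest p it allows is 0.0556).

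The make-up of the samples moved with these levels. Cxcr6-positive cells made up 6.1% to 10.8% of BAT T cells, 31.9% to 44.9% of SAT, 25.9% to 41.0% of VAT and 3.33% to 5.01% of spleen T cells. Summed CPM of 9 NKT and NK markers ran from 51.2 to 75.5 in BAT, from 78.9 to 200 in SAT, from 82.5 to 137 in VAT and from 41.5 to 65.2 in spleen. For 6 naive T cell markers the ranges were 1810 to 2070 in BAT, 658 to 1180 in SAT, 827 to 1230 in VAT and 2030 to 2200 in spleen. Their part in the levels over all T cells was not tested.

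Within Cxcr6-positive cells, SAT had more Gzmb and Ctsw and less Gzmk than VAT. This fit covered 7559 genes, of which 3.1% were called between SAT and VAT. Gzmb in replicates 1 to 4 was at 45.6, 55.2, 126 and 212 CPM in SAT and 29.9, 18.9, 36.9 and 12 CPM in VAT, without overlap (log2 fold change 2.02, SE 0.28, edgeR adjusted p = 2.12e-05). It was 2.2 without SAT replicate 1 (adjusted p = 2.49e-05), and in DESeq2 1.83 and not called (adjusted p = 0.0854). Gzmk was at 3.15, 2.98, 8.62 and 5.82 CPM in SAT and 15.9, 10.9, 29.6 and 23.0 CPM in VAT, also without overlap (-1.95, SE 0.44, edgeR adjusted p = 0.00787). In DESeq2 it was -1.98 and not called (adjusted p = 0.0733). The Gzmk call was also lost without SAT replicate 1, SAT replicate 4 or VAT replicate 3 (adjusted p = 0.0556, 0.0697 and 0.0768). Gzmb and Gzmk thus differed in opposite directions between the depots among Cxcr6-positive cells, with 25 Gzmk UMIs in SAT and 96 in VAT. That class also holds Klrb1c-positive cells, which had more Gzmb, and their part in the difference was not tested. Ctsw differed by 0.58 (SE 0.09, edgeR adjusted p = 0.000153), and Nkg7 by 0.38 (SE 0.13, adjusted p = 0.112), which was not called. Whether the Cxcr6 effect itself differed between SAT and VAT was tested after seeing the data: edgeR called 0 of 8036 genes (0%), and Gzmk was at -2.91 (SE 0.59, unadjusted p = 5.91e-05, adjusted p = 0.205).

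Against spleen, with 3 hashed samples of Cxcr6-positive cells, Gzmb was at 0, 6.95 and 41.7 CPM in spleen replicates 2 to 4. SAT exceeded it by 2.84 (SE 0.65, edgeR adjusted p = 0.00374; 8% of genes called), a call lost without spleen replicate 3 (2.40, adjusted p = 0.0572). VAT did not pass the threshold (0.82, SE 0.84, adjusted p = 0.665; 7.29% of genes called). Nkg7 exceeded spleen in SAT (1.23, adjusted p = 5.16e-05), VAT (0.85, adjusted p = 0.00575) and BAT (0.94, adjusted p = 0.0079; 2.47% of genes called). The VAT and BAT calls were lost without spleen replicate 2 or with stricter hashtag calls. In BAT, Gzmb was at 8.59, 54.5, 77.8 and 51.3 CPM and Gzmk at 4.3, 50.3, 5.56 and 0 CPM, and only Ctsw differed from SAT (-0.47, adjusted p = 0.0337; 1.19% of genes called), a call lost in 11 alternatives, without SAT replicate 1 among them, and kept in 9. No granule gene was called between BAT and VAT, where 1.01% of genes were.

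Within Foxp3-positive cells, Gzmb was higher in VAT and SAT than in spleen. It was at 6.4 and 9.86 CPM in BAT (replicates 1 and 4), 62.4, 82.1 and 304 CPM in SAT (replicates 1, 3 and 4), 138, 202, 442 and 28 CPM in VAT and 0, 27.5, 0 and 0 CPM in spleen. VAT exceeded spleen by 4.55 (SE 0.72, edgeR adjusted p = 5.67e-05; 11.1% of 5269 genes called) and SAT exceeded spleen by 3.86 (SE 0.81, adjusted p = 0.0023; 8.54% called), each on 9 UMIs in spleen. Without SAT replicate 1 the SAT difference was 4.26 (adjusted p = 0.00196). SAT and VAT overlapped (-0.69, SE 0.48, adjusted p = 0.828; 0.228% called). Nkg7 was at 244, 192 and 297 CPM in SAT, 131, 85.2, 173 and 67.2 CPM in VAT and 8.69, 15.3, 10.7 and 0 CPM in spleen. SAT exceeded spleen by 4.56 (SE 0.44, edgeR adjusted p = 5.39e-08) and VAT by 3.59 (SE 0.46, adjusted p = 2.71e-06). The call of BAT below VAT in Gzmb (-4.56, SE 1.24, adjusted p = 0.0431; 2.71% called) rested on 2 UMIs in BAT, and was lost in DESeq2 (adjusted p = 0.181) and without either BAT replicate. Ctsw exceeded spleen in SAT by 1.63 (SE 0.42, edgeR adjusted p = 0.0118), a call that was lost without SAT replicate 1 (1.45, adjusted p = 0.199), with stricter hashtag calls and in DESeq2 (adjusted p = 0.0761). Prf1, Gzma and Gzmk had too few counts to test here.

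**Figure D5:**
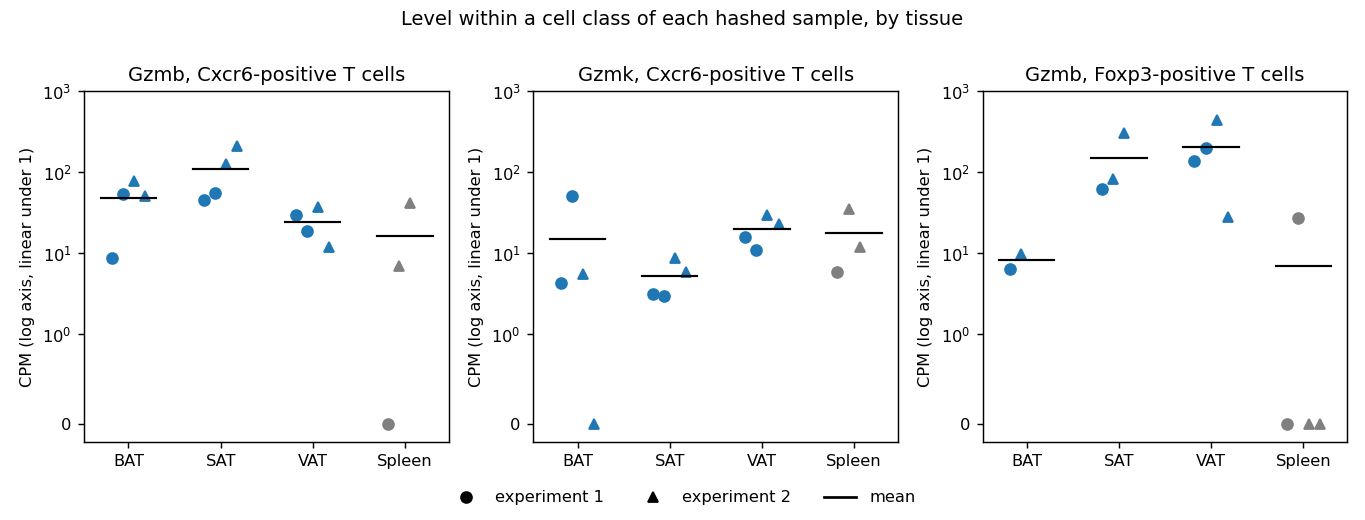
CPM (y axis, log scale, linear under 1) of Gzmb and Gzmk within Cxcr6-positive cells and of Gzmb within Foxp3-positive cells of each hashed sample with at least 20 such cells, by tissue; circles are experiment 1, triangles experiment 2 and lines the mean. In Cxcr6-positive cells Gzmb lies at 45.6 to 212 CPM in SAT and 12 to 36.9 CPM in VAT, and Gzmk at 2.98 to 8.62 CPM in SAT and 10.9 to 29.6 CPM in VAT.

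The genes whose levels were most like those of Gzma and Gzmb differed too. Likeness was Pearson's r of log2(CPM + 10) over 48 sums, the Foxp3-positive, Klrb1c-positive, Cxcr6-positive and remaining cells of each hashed sample, among 10113 genes. The sums share libraries and hashed samples, so r is a description only. For Gzma the 5 most like genes were Cx3cr1 (r = 0.59), Nrgn (0.54), Ebf1 (0.52), Gm45220 (0.50) and Nedd1 (0.49), and Nkg7 ranked 396 with 0.27. For Gzmb the genes reported here were Fgl2 (0.83), Slc16a6 (0.82), Osbpl3 (0.81) and Arf4 (0.80), and Nkg7 ranked 165 with 0.68. Gzma and Gzmb had an r of 0.16 with each other.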

How the data were processed

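Single-cell libraries of TCRb+CD3+CD4+ cells were analysed, 1 per experiment, each with 8 hashed samples. The values are raw UMI counts per gene and barcode, deposited by the authors as filtered matrices made with Cell Ranger, per the file headers, and mm10, bcl2fastq and Seurat are named in the submitters' processing notes. For strand handling and annotation nothing is stated in the sources at hand.

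Cells needed 500 genes, 1000 UMIs and a mitochondrial share under 10%, which kept 3985 of 4485 barcodes and 9004 of 12239. Hashtags were called with a mixture model at a posterior of 0.95, giving 300 and 1273 multiplets and 388 and 1459 unresolved barcodes. Multiplets had median depths of 12184.5 and 2865 UMIs, against 5955 and 4630.5 for single calls. No other doublet caller was run. Multiplets and unresolved cells entered shares per library and the comparison of Gzma with Gzmb cells, and no other test. The other 7 hashtags of each matrix are not named in the labels and were not used. A barcode was of another type if at least 2 markers of that type were found and together outnumbered the T cell markers, so T cells with much haemoglobin RNA were removed too. Thinning drew 1300 UMIs per cell and left out 18 and 658 T cells.

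Counts were summed per hashed sample and class of at least 20 cells. Within Cxcr6-positive cells the minimum for Klrb1c sums was 10, chosen after seeing the data. Sums were tested with edgeR 4.0.16 (quasi-likelihood, TMM, minimum count 10, R 4.3.3), with hashed sample as a block for classes and experiment as a term for tissues, and adjusted by Benjamini-Hochberg over all genes tested at 0.05. SE is the log2 fold change over the root of F. Groups were taken from the labelled hashtags. DESeq2 1.42.0, library-size scaling, other filters, thinning, stricter hashtag calls and leaving out samples were alternatives. The class gene, and Gzma and Gzmb where they chose the cells, were left out of tests. Shares have exact 95% Clopper-Pearson intervals, and these and zero-count limits of 3 counts cover counting error only. A pseudocount of 0.5 was used for ratios.

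The test recovered 92.1% of simulated 2-fold changes (log2 size 1) in the Cxcr6 class fit over 8087 genes and 54.3% in the tissue fit over 10444 genes. The simulation gave every gene the same fixed spread and changed only genes above a minimum mean count. These shares therefore do not carry over to the rare granzymes, whose UMIs lay unevenly over cells. Members and gene lists were chosen with earlier results of these data known. Named genes were the members, at most 4 called genes of each list with the largest log2 fold change, the 5 highest and 5 lowest called genes of the Gzma and Gzmb comparison, and the 5 genes most like each of Gzma and Gzmb. For Gzmb, 1 of these genes is not reported here. Barcodes found in both libraries after filtering numbered 9. Symbols shared by several IDs, 114 in all, were kept apart by ID.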

Additional observations from a re-analysis of the deposited data

Results flagged for a closer look

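Among 42 groups of 4 hashed samples, 7 had 1 sample far from the other 3. Chance gives about 1 in 20 for normally distributed values, a rate that need not hold for low counts such as these. Over all T cells, BAT replicate 3 stood apart in 3 genes. It had 22.1 CPM of Gzma, against 1.28 to 2.8 CPM in the other BAT samples, and 1 cell held 64 of its 65 Gzma UMIs. It also had 16 CPM of Gzmb, against 6.31 to 7.66 CPM, and 88.4 CPM of Ctsw, against 41.0 to 46.7 CPM in the other BAT samples.

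Within Cxcr6-positive cells, BAT replicate 2 had 12.6 CPM of Gzma, from 3 UMIs in 1 cell, against 0 CPM in the other BAT samples. It also had 50.3 CPM of Gzmk, against 0 to 5.56 CPM. BAT replicate 3 was low in Prf1, at 5.56 CPM against 15.4 to 17.2 CPM. VAT replicate 1 had 33.2 CPM of Gzma, against 2.46 to 4.6 CPM in the other VAT samples. The causes were not tested.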

How the results depend on the processing

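Of the alternatives run on single genes, 1795 stayed on the same side of the threshold, 76 lost a call, 28 gained one and 1 turned round. Direction was compared only where the main fit had called the gene. With cells thinned to 1300 UMIs the granule genes called numbered 2 in the Foxp3 class (4 otherwise), 2 in the Cxcr6 class (4 otherwise), 3 in the Klrb1c class (5 otherwise) and 1 between Gzma and Gzmb cells (2 otherwise). Thinning leaves fewer genes to test: in the Cxcr6 class 988 of 3373 genes were called with thinned cells, against 2857 of 7971 otherwise. The counts of granule genes were not tested against the share of all genes called, and counts over all genes for several fits follow below. Stricter hashtag calls gave 3 in the Klrb1c class. In the tissue fit of Foxp3-positive cells, calls were counted per gene and pair of tissues. There stricter hashtag calls gave 4 calls, against 7 otherwise and 12 with no filter on low counts. Within Cxcr6-positive cells sums per library gave 5 granule genes for Klrb1c, against 3. Between Gzma and Gzmb cells DESeq2 gave 0, sums per hashed sample 1 and leaving out Klrb1c cells 1. Apart from fewer genes tested, the cause was not tested.

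The share of T cells with Gzma was 0.623% thinned and 0.542% at 2 UMIs or more in library 1 (1.24% otherwise), and 0.408% and 0.235% in library 2 (0.741% otherwise). For Gzmb these were 1.76% and 2.43% in library 1 (4.47% otherwise) and 2.4% and 2.27% in library 2 (4.78% otherwise). The Gzma difference in the Klrb1c class ranged from -0.76 without replicate 3 to 3.14 without replicate 1. The difference of the log2 ratio of Gzma to Gzmb between VAT and spleen, -0.69 and not called, ranged from -1.77 without spleen replicate 2 to 0.38 without spleen replicate 1, and was 0.34 without VAT replicate 2. With pseudocounts of 0.1 and 2 the ratio differences were -4.51 and -2.89 in the Cxcr6 class and -4.28 and -2.12 in the Foxp3 class.

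Deviations of same-numbered samples of different tissues correlated at -0.127 to 0.0712. These values cannot tell whether such samples came from the same animal, which need not leave a common deviation in different tissues. With the replicate block, Nkg7 between SAT and VAT was 0.51 and not called (edgeR adjusted p = 0.0792), and Gzmb between BAT and VAT in Foxp3-positive cells was -4.12 and not called (edgeR adjusted p = 0.143). With no replicate block in the class fits, Gzma in the Klrb1c class was 2.83 and not called (edgeR adjusted p = 0.0773).

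Counts over all genes moved more. The Cxcr6 class gave 988 thinned and 5022 per library, against 2857, and the Foxp3 class 506 thinned and 2095 with no filter, against 1317. The Klrb1c class gave 294 thinned, 1552 per library, 500 without replicate 3 and 378 without replicate 4, against 764. Klrb1c within Cxcr6-positive cells gave 72 thinned to 400 with no filter, against 239. Gzma and Gzmb cells differed in 18 genes by DESeq2, 25 thinned, 33 per hashed sample and 295 with library-size scaling, against 178. SAT and VAT differed in 141 with stricter hashtag calls to 717 with no filter, against 392, and in 166 without SAT replicate 1. BAT and spleen differed in 1481 with no filter and 636 without spleen replicate 2, against 972. Within Cxcr6-positive cells, SAT and VAT gave 105 with stricter hashtag calls and 106 without SAT replicate 1, against 234. BAT and SAT gave 31 without BAT replicate 3 and 207 with no filter there, against 90. BAT and VAT gave 47 without BAT replicate 1 and 147 with no filter, against 76. BAT and spleen gave 124 without BAT replicate 3, against 187. Stricter hashtag calls gave 297 for SAT and 261 for VAT against spleen, where 605 and 551 were called otherwise, with 390 and 294 without spleen replicate 2. Within Foxp3-positive cells, SAT and VAT gave 1 without VAT replicate 4 and 64 with no filter, against 12. BAT gave 1 without BAT replicate 1 against SAT, where 107 were called otherwise, 14 against VAT, where 143 were, and 41 with no filter against spleen, where 17 were. SAT and VAT against spleen gave 282 and 386 by DESeq2, against 450 and 585. Few cells per class, 24 and 43 barcodes for the free-RNA floor, and 2 libraries limit the rare granzymes most.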

Other observations

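Other granzyme genes had fewer UMIs than Gzma, or none. Gzmc, next to Gzmb on chromosome 14, had 59 UMIs in 43 T cells of library 1 and 78 in 71 of library 2. Gzmm had 38 UMIs in 27 cells of library 1 and 40 in 36 of library 2, and Gzmf 1 and 3 UMIs. Gzmd, Gzme, Gzmg and Gzmn had 0 UMIs, which allows a share of T cells with a UMI of up to 0.0775% in library 1 and 0.0353% in library 2, and sets no limit on cells that express them.

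Gzmb cells lay in different classes by tissue. SAT had 227 Gzmb cells among 2169 T cells, 135 of them Cxcr6-positive, 33 Foxp3-positive and 51 Klrb1c-positive. VAT had 95 among 2389, with 39 Cxcr6-positive, 34 Foxp3-positive and 9 Klrb1c-positive. BAT had 38 among 2171 and spleen 19 among 2518. Gzmk cells numbered 48 in SAT and 81 in VAT, of which 20 and 55 were Cxcr6-positive. These counts of cells were not tested.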
